A study of Mus musculus with 16 samples.

Results

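The 31 genes described here are imprinted genes, chosen as a list of symbols and found by their Ensembl identifiers among the 52636 genes of the count table. All 31 were found, and 27 of them passed the filter on low counts, which left 18587 genes in all. RNA was sequenced from islets of 12 week old male mice, labelled C57BL/6JRj (the methods of the study write C57BL/6NRj), kept in culture for 10 days. The 4 conditions were no addition (control), 0.2 mM butyrate, 50 pg/mL IL-1β, and IL-1β plus butyrate at these concentrations, with 4 libraries in each. For a library, 500 islets of several mice were pooled, which makes the culture experiment, not the mouse, the replicate, and all conditions share the culture itself. Islets are the endocrine part of the pancreas, and most of their cells are beta cells, which secrete insulin. IL-1β is an inflammatory cytokine. Butyrate, a short chain fatty acid formed when gut bacteria ferment fibre, inhibits histone deacetylases.

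An imprinted gene is transcribed mainly from the copy inherited from the mother or mainly from the copy inherited from the father. The choice is set by DNA methylation laid down in the germ line at control regions, and it is kept in later cell divisions by DNMT1 with UHRF1 and by ZFP57 and ZFP445, which bind methylated control regions and recruit TRIM28. Many imprinted genes act on fetal growth, metabolism and the brain, and in the pancreas the growth factor gene Igf2 lies beside the insulin gene Ins2. The question was whether butyrate, alone or in the presence of IL-1β, shifted these genes. The counts sum the transcripts of both parental copies, so the libraries measure levels and do not tell which copy was transcribed.

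The members lie in 15 imprinted loci on 9 chromosomes. The upstream bases of 4 members changed by butyrate or IL-1β are shown with the features searched for, to set stretches that hold both side by side with stretches that hold CpG alone. The features were CpG dinucleotides and TGCCGC, the short sequence that ZFP57 recognises when it is methylated (or GCGGCA on the other strand). Printed are the 250 bases before an annotated start from RefSeq (GRCm38.p6), written along the strand of the gene, with capitals marking each CpG and each match to TGCCGC or GCGGCA. The Igf2 bases are chr7:142657497-142657746 on the minus strand, inside Igf2 and outside its annotated exons. Those of Nnat are chr2:157559828-157560077 on the plus strand, inside Blcap. Those of Zdbf2 are chr1:63200108-63200357 on the plus strand, from the upstream start in the region of Gpr1 and Platr12. The Meg3 bases are chr12:109540746-109540995 on the plus strand, where GENCODE M21 lists no gene.
Igf2: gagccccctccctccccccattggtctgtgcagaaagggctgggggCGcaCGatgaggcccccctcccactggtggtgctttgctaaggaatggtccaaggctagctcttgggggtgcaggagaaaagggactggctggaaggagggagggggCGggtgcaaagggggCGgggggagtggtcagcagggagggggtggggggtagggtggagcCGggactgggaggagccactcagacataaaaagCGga
Nnat: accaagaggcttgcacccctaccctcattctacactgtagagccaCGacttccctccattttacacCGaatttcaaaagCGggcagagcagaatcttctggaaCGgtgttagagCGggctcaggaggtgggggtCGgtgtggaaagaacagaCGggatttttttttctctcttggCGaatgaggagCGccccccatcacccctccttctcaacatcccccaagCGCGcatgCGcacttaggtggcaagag
Zdbf2: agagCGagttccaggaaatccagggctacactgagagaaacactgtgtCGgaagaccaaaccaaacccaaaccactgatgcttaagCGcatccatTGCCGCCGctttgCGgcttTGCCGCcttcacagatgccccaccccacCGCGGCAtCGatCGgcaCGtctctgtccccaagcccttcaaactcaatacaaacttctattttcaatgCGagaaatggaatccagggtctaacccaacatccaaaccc
Meg3: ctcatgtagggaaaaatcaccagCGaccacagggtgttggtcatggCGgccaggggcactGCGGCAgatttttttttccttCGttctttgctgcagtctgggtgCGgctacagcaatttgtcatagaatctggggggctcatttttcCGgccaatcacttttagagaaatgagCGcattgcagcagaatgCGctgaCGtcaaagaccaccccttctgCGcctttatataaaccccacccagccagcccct
The Igf2 bases held 6 CpG and the Nnat bases 12, and neither held the short sequence. Among the Zdbf2 bases were 13 CpG and 3 matches, which began 155, 136 and 107 bases before the start. Meg3 had 10 CpG and 1 match, which began 190 bases before its start. RefSeq windows from 250 bases before to 50 bases after a start were at hand for 26 of the 31 members, 40 windows in all. In its window, Nnat held 1 match that began 27 bases after the start, and another Igf2 window held 1 at 30 bases after. The windows at the other starts of Zdbf2 and Meg3 held 0 matches. The contrast between the printed stretches therefore depends on the window. TGCCGC or GCGGCA was found in 12 of these 40 windows (30.0%), against 11.6% of the 32851 windows of all genes, and in 7 (17.5%) against 8.68% when the 50 bases after the start were left out. The members' windows held a median of 13 CpG, against 7 for all windows. These are descriptions of sequence, and several windows belong to the same gene. The same window with a match was entered for both Snrpn and Snurf, and the Mest windows with matches overlap almost fully. The short sequence itself holds a CpG, so its count and the CpG count are not independent.

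A library had between 18635943 and 25955943 counts (median 22184715). Levels are given as CPM, the counts scaled by edgeR to a common library size with TMM, and changes as log2 fold changes with their standard error (SE) from edgeR's quasi-likelihood test. A gene was called changed at an edgeR FDR, which is the Benjamini-Hochberg adjusted p over all 18587 genes tested, under 0.01. The limit given for a count of 0 covers counting error only. The islet label was borne out by the endocrine markers: the 9 beta cell genes summed to between 137900 and 262500 CPM, whereas the 10 fibroblast and stellate cell genes summed to between 8.32 and 38.1 CPM. Some marker lists moved with the conditions. All 6 genes of cycling cells fell with butyrate in both comparisons, from a summed 61.3 to 151 CPM in control to 12.2 to 24.3 CPM with butyrate, and from 48.2 to 92.7 CPM with IL-1β to 11.4 to 26.8 CPM with both agents. The delta cell hormone Sst rose in both, with log2 fold changes of 0.55 and 0.61. Of the 5 alpha cell genes, Irx2 and Ttr fell in both and Gcg rose by 0.25 on the log2 scale with butyrate where IL-1β was present. Of the 9 beta cell genes, 3 were called higher and 1 lower with butyrate against control (19.9% of all genes were called). In the presence of IL-1β, butyrate raised 0 and lowered 2 of them (19.5% of all genes). With IL-1β against control, 7 of the 9 beta cell genes fell and 7 of 8 macrophage genes rose. The summed macrophage genes were lower with butyrate, at 82.8 to 103.9 CPM against 123.4 to 138.6 in control, and at 88.7 to 114.8 CPM with both agents against 158.1 to 184.6 with IL-1β, and 1 and 3 of the 8 were called lower. C1qa was the largest part of these sums, at a mean of 111.3 CPM in control, 77.6 with butyrate, 79.7 with IL-1β and 51.2 with both. Unlike the other macrophage genes, C1qa was lower with IL-1β than in control. The part of these shifts in the results below was not tested. Fewer cells of a type and less RNA per cell cannot be told apart in whole islets.

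Per kilobase of exon, the most abundant members in control islets were Peg3, a zinc finger transcription factor, at 216 CPM per kb, and Meg3, a long non-coding RNA, at 107 CPM per kb. Rian, a non-coding RNA that hosts small nucleolar RNAs, followed at 40.4 CPM per kb. Impact, Igf2r, Zim1, Nnat, Ndn, Snrpn, Gnas, Zdbf2 and Copg2 were between 10.2 and 23.0 CPM per kb. Igf2 was at 0.75 CPM per kb in control islets, next to Sgce (0.77) and above Rtl1 (0.48), and at 3.83 CPM per kb with butyrate, above Usp29 (2.23) and Airn (3.34). Neighbours in this order such as Sgce and Igf2, or Snrpn (14.6) and Ndn (14.8), differed by less than the spread of either gene over its libraries. The plot of mean levels shows that few members changed their place between conditions.

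**Figure D1:**
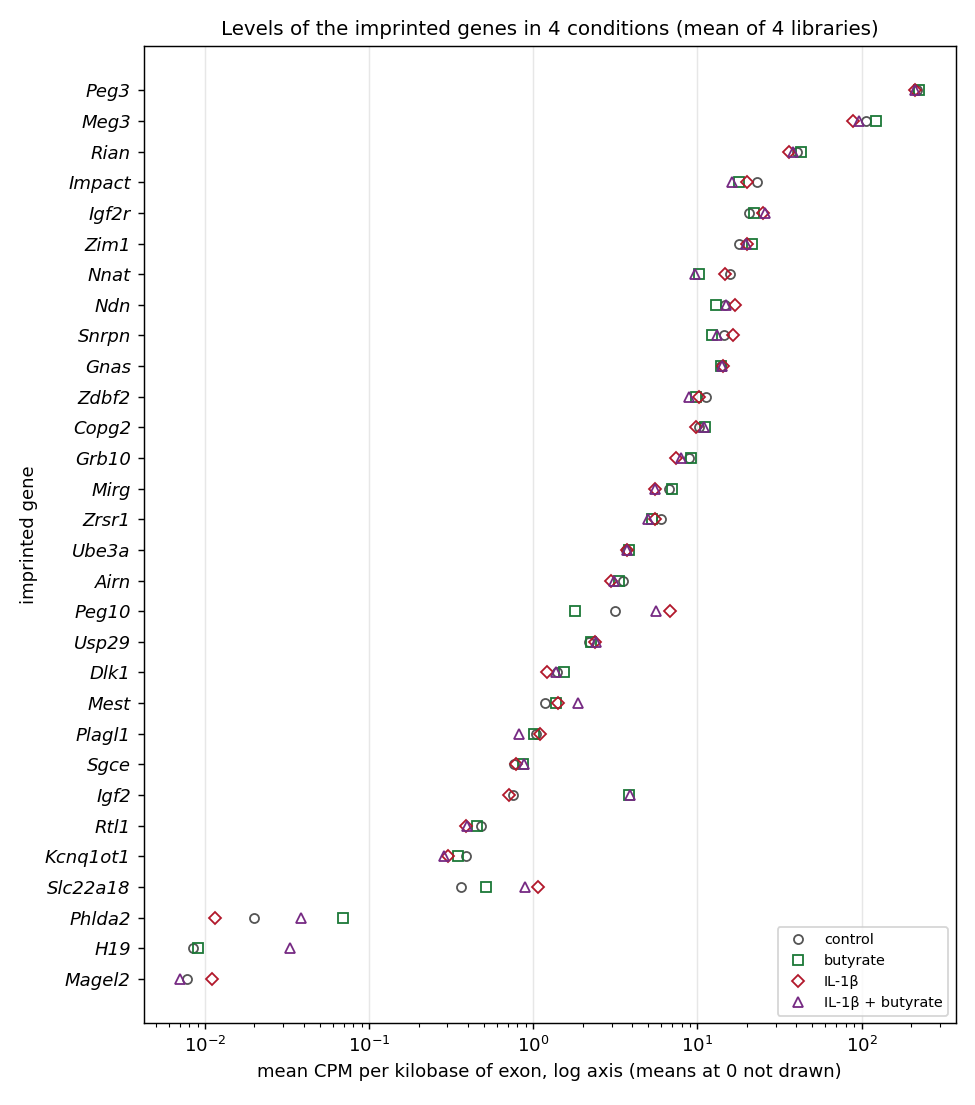
Mean CPM per kilobase of exon (log axis) of 30 members in the 4 conditions, each symbol the mean of 4 libraries, with members in order of their control level; Snurf, with no counts, and means of 0 are left out. Igf2, Peg10, Slc22a18 and the members near 0 counts are those whose symbols spread most.

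Another 4 members had too few counts to test. H19, a maternally expressed non-coding RNA, had 0 to 5 counts in a library and 2, 2, 0 and 7 counts in all in the control, butyrate, IL-1β and combined conditions. Phlda2, which restrains placental growth, had 2, 7, 1 and 4 counts in the same order, and Magel2, of a ubiquitin ligase complex, had 3, 0, 4 and 3. Snurf had 0 counts in each library, which by counting error alone allows up to 3 counts. Its 216 exon bases all lie within exons of Snrpn and of Gm38393, so reads there cannot be told from theirs. The 0 therefore does not measure the level of Snurf. No direction can be read from the counts of H19, Phlda2 and Magel2 at this depth.

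With butyrate against control, 1 of the 27 tested members rose and 4 fell, which is 18.5% of them, where 19.9% of all 18587 genes were called (8.53% higher and 11.4% lower). In the presence of IL-1β, butyrate raised 1 and lowered 6, or 25.9% against 19.5% of all genes (8.41% higher and 11.1% lower). The median log2 fold change of the members was 0.026 and -0.0085 in these comparisons, and that of all genes 0.0065 and 0.012. Called in both comparisons, which share no library, were Igf2 (up), Peg10, Nnat, Snrpn and Impact (down), that is 5 of the 5 genes of the former list and 5 of the 7 of the latter. Plagl1 and Zdbf2 were called only in the presence of IL-1β, and for neither was the difference between the butyrate effects called. The sign of the change was the same in both comparisons for 21 of the 27 members. Both comparisons came from 1 fit. For all genes, neither the share called in both nor the share of equal sign was counted, so whether these overlaps are particular to the members cannot be said. With upper-quartile scaling, 4 members rose and 3 fell with butyrate against control, and in the presence of IL-1β 2 rose and 5 fell with upper-quartile scaling or with library sizes alone, so the split of the small changes depended on scaling.

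**Figure D2:**
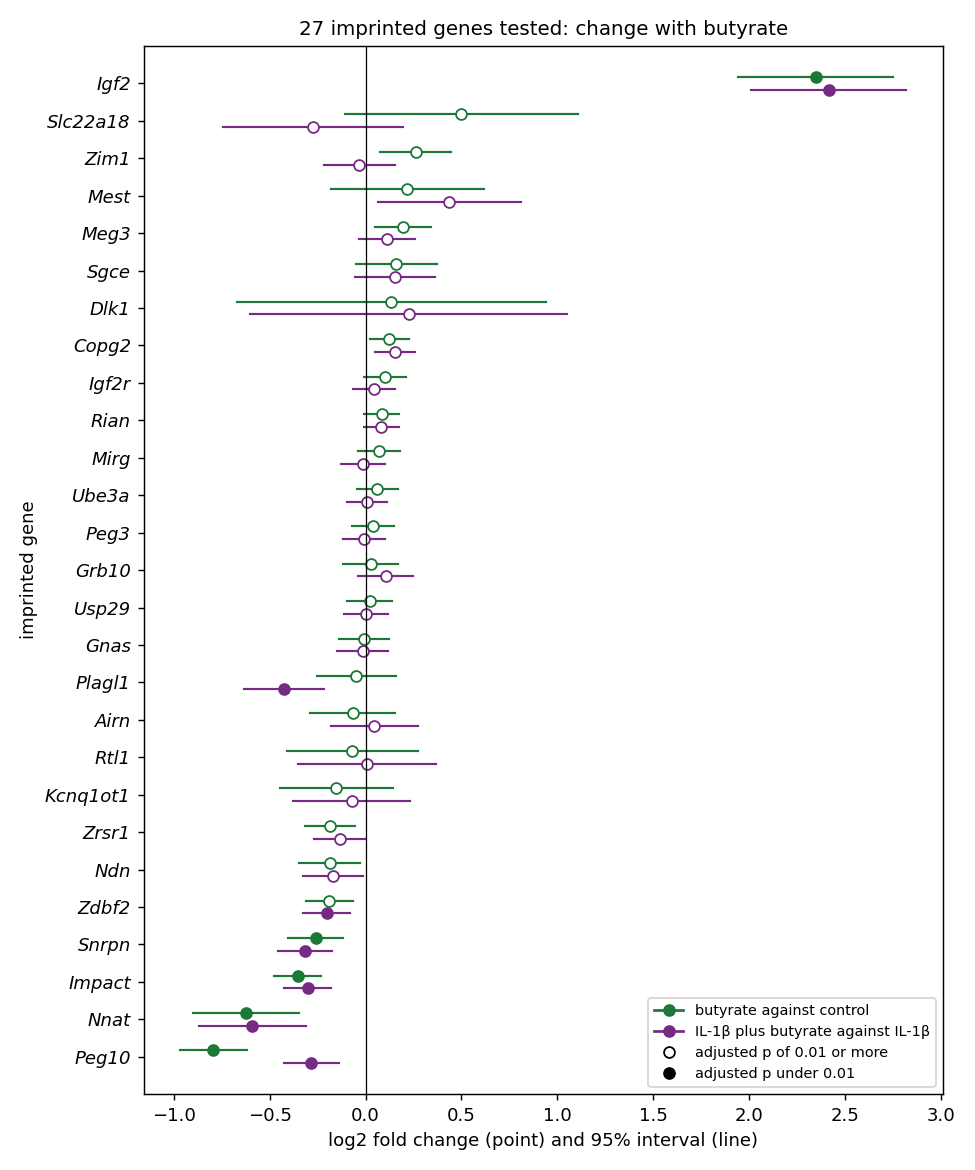
Log2 fold change (point) with its 95% interval (line) for the 27 tested members with butyrate against control (green) and IL-1β plus butyrate against IL-1β (purple); filled points have an edgeR FDR under 0.01. Igf2 lies at 2.35 and 2.41, and all other points lie between -0.79 and 0.50.

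Igf2, the fetal growth factor that signals through the IGF1 and insulin receptors, changed most. Igf2 stood at 3.22, 3.59, 5.06 and 5.39 CPM in the control libraries and at 20.7, 23.8, 19.7 and 23.4 CPM in the butyrate libraries. With IL-1β, Igf2 was at 2.33, 3.50, 5.03 and 5.52 CPM, and with IL-1β plus butyrate at 20.9, 21.8, 21.2 and 25.5 CPM. The libraries with butyrate were all above those without it, whether or not IL-1β was present. The change was 5.09-fold with butyrate against control (log2 fold change 2.35, SE 0.185, edgeR FDR 2.12e-07) and 5.33-fold in the presence of IL-1β (2.41, SE 0.186, edgeR FDR 1.69e-07). Behind these values were 69 to 126 counts per control library and 377 to 545 per butyrate library. IL-1β alone gave -0.04 (SE 0.229, 95% interval -0.54 to 0.45), and the effect of butyrate differed between absence and presence of IL-1β by 0.07 (95% interval -0.53 to 0.67). Both calls held in each of the 23 alternative fits, with edgeR or DESeq2 FDR of at most 2.5e-06 and 1.64e-05.

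The neighbours of Igf2 were measured beside it. Ins2, the adjacent insulin gene, was at 145100 ± 7863 CPM in control (SD, n = 4), 161900 ± 12180 with butyrate, 88050 ± 10810 with IL-1β and 88440 ± 9896 with both, with log2 fold changes of 0.16 and 0.0065 in the butyrate comparisons (edgeR FDR 0.171 and 0.965). The antisense gene Igf2os, which overlaps 98 exon bases of Igf2, was between 0.38 and 0.96 CPM, with a mean of 0.41 CPM in control and 0.82 with butyrate (log2 fold change 0.99, SE 0.302, edgeR FDR 0.0136) and of 0.52 and 0.72 CPM in the presence of IL-1β (0.43, SE 0.294, edgeR FDR 0.291). GENCODE M21 also lists Gm49394 over 3596 exon bases of Igf2, and that gene is no row of the count table. Mesenchymal cells are a known site of Igf2 transcription, so the fibroblast and stellate cell genes are given here. Their summed level was 11.4 to 26.1 CPM in control, 16.9 to 22.8 with butyrate, 8.32 to 23.96 with IL-1β and 12.7 to 38.1 with both, which overlap. The median log2 fold change of the 10 genes was 0.21 against control and 0.37 in the presence of IL-1β, and 1 of them, Pdgfra, was called against control (0.20 ± 0.10 to 0.72 ± 0.11 CPM, SD, n = 4). Their part in the rise of Igf2 was not tested.

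Of the genes that act with IGF2, Igf2r, the receptor that clears it, was in the list. Igf2r stood at 212, 179, 191 and 189 CPM in the control libraries and at 213, 207, 194 and 212 CPM in the butyrate libraries. With IL-1β, Igf2r was at 245, 222, 229 and 234 CPM, and with IL-1β plus butyrate at 239.9, 244, 228 and 246 CPM. All IL-1β libraries were above all control libraries, while the butyrate libraries overlapped the control libraries. The rise of Igf2r with IL-1β was 0.27 as a log2 fold change (SE 0.0497), at an edgeR FDR of 0.000113, and it gave 0.10 and 0.04 in the butyrate comparisons (edgeR FDR 0.13 and 0.553). Airn, the paternal RNA that runs antisense through Igf2r, was between 9.35 and 14.5 CPM. Airn stood at 11.5, 11.6, 12.8 and 14.5 CPM in the control libraries and at 9.79, 12.2, 12.3 and 13.8 CPM in the butyrate libraries. With IL-1β, Airn was at 10.1, 9.35, 11.97 and 11.4 CPM, and with IL-1β plus butyrate at 10.3, 10.1, 11.3 and 12.8 CPM. Its ranges overlapped between all conditions, and it was called in none of the 3 comparisons. Only with the replicate number as a block was Airn called lower with IL-1β (edgeR FDR 0.00962).

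Among 16 further genes of the insulin and IGF pathway, 12 were tested and 2 rose with butyrate against control (19.9% of all genes were called), with a median log2 fold change of 0.16 against 0.0065 for all genes. In the presence of IL-1β, 2 rose and 2 fell (19.5% of all genes), with a median of 0.16 against 0.012. Igfbp4, an IGF binding protein, rose from 1.36 ± 0.52 to 3.47 ± 0.19 CPM with butyrate and from 10.1 ± 0.61 to 22.8 ± 4.32 CPM in the presence of IL-1β (SD, n = 4). Igf2bp2, an RNA-binding protein named for its binding to Igf2 mRNA, rose from 7.85 ± 1.17 to 12.7 ± 1.67 CPM and from 9.78 ± 1.25 to 14.2 ± 1.46 CPM. Those that butyrate lowered in the presence of IL-1β were Igf1 (-0.79) and Ins1 (-0.40). The receptor genes Igf1r and Insr were not called, with 0.30 and 0.18 against control (edgeR FDR 0.186 and 0.0101).

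Grb10, an adaptor that restrains insulin and IGF1 receptor signalling, was lower with IL-1β. Grb10 stood at 88.3, 79.6, 78.8 and 77.4 CPM in the control libraries and at 86.3, 85.6, 79.4 and 78.6 CPM in the butyrate libraries. With IL-1β, Grb10 was at 78.3, 59.2, 67.5 and 64.8 CPM, and with IL-1β plus butyrate at 77.4, 72.2, 72.8 and 67.2 CPM. Replicate 1 of IL-1β overlapped the control range and the other libraries with IL-1β alone lay below it. The log2 fold change was -0.27 with IL-1β (SE 0.0653, edgeR FDR 0.0031), a call lost in 6 of 23 alternative fits, and 0.03 and 0.10 in the butyrate comparisons (edgeR FDR 0.81 and 0.247).

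Peg10, a gene of retrotransposon origin that encodes a capsid-like protein, changed with both agents, in opposite directions. Peg10 stood at 21.8, 19.9, 21.98 and 19.99 CPM in the control libraries and at 12.6, 14.2, 10.03 and 11.3 CPM in the butyrate libraries. With IL-1β, Peg10 was at 47.4, 42.6, 44.3 and 47.8 CPM, and with IL-1β plus butyrate at 34.1, 38.3, 39.4 and 38.2 CPM. The 4 conditions did not overlap. As log2 fold changes, Peg10 gave -0.79 with butyrate (SE 0.08, edgeR FDR 2.34e-08), 1.13 with IL-1β (SE 0.0703, edgeR FDR 1.05e-12) and -0.28 with butyrate on top of IL-1β (SE 0.0666, edgeR FDR 0.00189). The difference between the butyrate effects was 0.51 (SE 0.104), with an edgeR FDR of 0.0282. That difference was called in 4 of 22 alternative fits, DESeq2 (FDR 0.00639) among them. With both agents, Peg10 remained 1.79-fold above control (log2 fold change 0.84, SE 0.0708, edgeR FDR 2.36e-10).

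Sgce, the epsilon-sarcoglycan gene that shares the control region of Peg10, gave no call. Its libraries ranged from 7.27 to 10.3 CPM, and its log2 fold changes were 0.16 and 0.15 in the butyrate comparisons (edgeR FDR 0.233 and 0.242). The butyrate effects on the 2 genes were not tested against each other. Casd1, a sialic acid acetyltransferase gene of the same chromosome 6 cluster, fell with butyrate from 57.8 ± 1.90 to 38.6 ± 1.39 CPM and from 58.7 ± 5.18 to 41.5 ± 1.60 CPM in the presence of IL-1β (SD, n = 4).

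Nnat, a small protein of the endoplasmic reticulum membrane that is expressed in beta cells, fell with butyrate. Nnat stood at 33.3, 28.8, 27.3 and 26.4 CPM in the control libraries and at 23.2, 19.4, 15.9 and 16.6 CPM in the butyrate libraries. With IL-1β, Nnat was at 24.5, 29.02, 27.1 and 26.6 CPM, and with IL-1β plus butyrate at 21.9, 15.1, 18.5 and 15.5 CPM. All libraries with butyrate lay below all libraries without it. The log2 fold change was -0.62 against control (SE 0.127, edgeR FDR 0.00145) and -0.59 in the presence of IL-1β (SE 0.127, edgeR FDR 0.00236). The former held in all 23 alternative fits and the latter in 22, being lost without IL-1β replicate 2 (edgeR FDR 0.0112). IL-1β alone gave -0.11 (SE 0.122, edgeR FDR 0.566).

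In the Prader-Willi and Angelman region of chromosome 7, Snrpn fell with butyrate. Snrpn encodes SmN, a splicing protein. Snrpn stood at 31.8, 33.4, 31.1 and 29.8 CPM in the control libraries and at 26.6, 25.98, 27.7 and 25.03 CPM in the butyrate libraries. With IL-1β, Snrpn was at 35.05, 39.9, 36.02 and 31.1 CPM, and with IL-1β plus butyrate at 27.6, 31.3, 26.9 and 27.9 CPM. The butyrate libraries lay below all control libraries, and in the presence of IL-1β 1 library with both agents, at 31.3 CPM, lay just above the lowest IL-1β library. The log2 fold changes were -0.26 (SE 0.066, edgeR FDR 0.00336) and -0.32 (SE 0.0647, edgeR FDR 0.000439). The former call was lost in 4 of 23 alternative fits, with upper-quartile scaling and without control replicate 2 or butyrate replicate 2 or 4, at edgeR FDR of up to 0.0166. Gm38393, which shares 589 exon bases with Snrpn, was between 6.21 and 9.89 CPM and was not called, with 0.10 in both butyrate comparisons.

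Ndn and Ube3a, the other tested members of that region, were not called in either butyrate comparison. Ndn, of the MAGE family, is transcribed from the paternal copy like Snrpn. Ndn stood at 57.8, 54.6, 53.4 and 52.7 CPM in the control libraries and at 53.1, 46.2, 48.5 and 44.3 CPM in the butyrate libraries. With IL-1β, Ndn was at 69.6, 67.7, 54.5 and 57.8 CPM, and with IL-1β plus butyrate at 57.7, 59.5, 54.96 and 49.6 CPM. Its log2 fold changes were -0.19 and -0.17 (edgeR FDR 0.0589 and 0.0818), and the ranges with and without butyrate overlapped. Both changes of Ndn were called with the replicate number as a block (edgeR FDR 0.00219 and 0.00433). Ube3a encodes the ubiquitin ligase E6-AP and is imprinted in neurons. Ube3a stood at 77.4, 73.5, 76.7 and 77.3 CPM in the control libraries and at 76.3, 79.1, 82.8 and 79.8 CPM in the butyrate libraries. With IL-1β, Ube3a was at 84.2, 73.8, 77.8 and 71.5 CPM, and with IL-1β plus butyrate at 74.2, 80.6, 77.7 and 75.7 CPM. The ranges overlapped throughout, and its log2 fold changes were 0.06 and 0.0069, with 95% intervals of -0.05 to 0.17 and -0.10 to 0.11. Ube3a shares 1803 exon bases with Snhg14, which was at 13.8 to 17.96 CPM.

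Impact, an inhibitor of the stress kinase GCN2, fell with each agent. Impact stood at 123, 116, 118 and 115 CPM in the control libraries and at 95.8, 89.8, 92.1 and 92.05 CPM in the butyrate libraries. With IL-1β, Impact was at 119, 92.8, 105 and 96.03 CPM, and with IL-1β plus butyrate at 80.1, 86.3, 83.2 and 85.1 CPM. The butyrate libraries all lay below the control libraries, and the libraries with both agents all lay below those with IL-1β alone. The log2 fold changes were -0.35 with butyrate (SE 0.0563, edgeR FDR 2.1e-05) and -0.30 in the presence of IL-1β (SE 0.0566, edgeR FDR 0.00017), and both held in all 23 alternative fits. IL-1β alone gave -0.20 (SE 0.056, with an edgeR FDR of 0.00981). That call held in 5 of 23 alternative fits only, and IL-1β replicate 1 was within the control range.

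Plagl1, a zinc finger transcription factor that acts on cell cycle and growth genes, fell in the presence of IL-1β. Plagl1 stood at 7.56, 8.51, 8.46 and 8.004 CPM in the control libraries and at 8.14, 7.86, 7.995 and 7.53 CPM in the butyrate libraries. With IL-1β, Plagl1 was at 7.24, 8.52, 8.91 and 9.49 CPM, and with IL-1β plus butyrate at 5.56, 6.62, 7.23 and 6.16 CPM. The libraries with both agents lay just below those with IL-1β alone, and the control and butyrate libraries overlapped. The log2 fold change was -0.43 in the presence of IL-1β (SE 0.0952, edgeR FDR 0.00114) and -0.05 against control (SE 0.0939, 95% interval -0.25 to 0.16). The difference of -0.38 between them (95% interval -0.67 to -0.09) had an edgeR FDR of 0.401 over all genes.

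Zdbf2, a zinc finger gene whose upstream bases are shown above, was slightly lower with butyrate. Zdbf2 stood at 141, 132, 153 and 140.5 CPM in the control libraries and at 117, 126, 122 and 132 CPM in the butyrate libraries. With IL-1β, Zdbf2 was at 138, 114, 128 and 135 CPM, and with IL-1β plus butyrate at 106, 113, 110.4 and 119 CPM. The butyrate libraries lay below all control libraries by a narrow margin, and the ranges of IL-1β with and without butyrate overlapped. The log2 fold changes were -0.19 (SE 0.0562, edgeR FDR 0.0118) and -0.20 (SE 0.0564, edgeR FDR 0.0072), so that only the latter was called. It was lost in 7 of 23 alternative fits and the former was gained in 9.

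**Figure D3:**
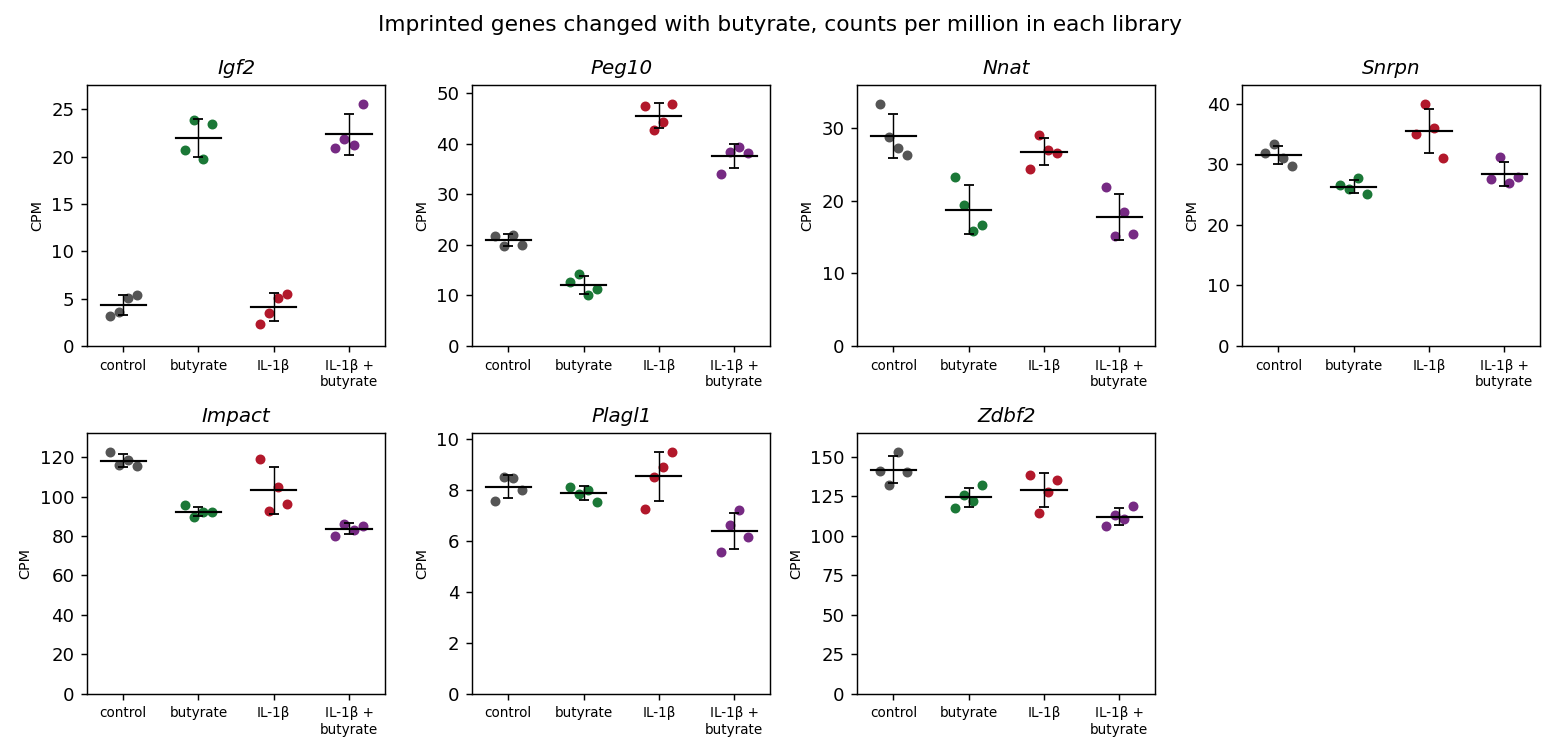
CPM in each library (points, replicates 1 to 4 from left to right) of the 7 members called in a butyrate comparison, with the mean (wide line) and SD (error bar) of 4 libraries per condition; each axis starts at 0. Igf2 rises from about the level of 4.32 CPM in control to 21.9 CPM with butyrate, while Peg10, Nnat, Snrpn and Impact are lower in each condition with butyrate than in its counterpart without.

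Peg3, Zim1 and Usp29, of the Peg3 locus, were not called with butyrate. Peg3 stood at 2897, 2718, 3009 and 2909 CPM in the control libraries and at 2900, 2996, 2858 and 3099 CPM in the butyrate libraries. With IL-1β, Peg3 was at 2912, 2558, 2863 and 2982 CPM, and with IL-1β plus butyrate at 2844, 2775, 2790 and 2839 CPM. The ranges overlapped, and the log2 fold changes with butyrate were 0.04 and -0.0085, with 95% intervals of -0.07 to 0.15 and -0.12 to 0.10. Zim1 is the maternally expressed zinc finger gene beside it. Zim1 stood at 159, 144, 146 and 129 CPM in the control libraries and at 197, 180.5, 156 and 159 CPM in the butyrate libraries. With IL-1β, Zim1 was at 184, 158, 149.9 and 159 CPM, and with IL-1β plus butyrate at 177, 164, 152 and 143 CPM. Replicate 1 was highest in each condition, and the ranges overlapped. Zim1 gave 0.26 with butyrate against control (SE 0.0857, edgeR FDR 0.0294) and -0.03 in the presence of IL-1β (edgeR FDR 0.81). The difference of -0.29 between these effects had an edgeR FDR of 0.58. Once libraries were blocked by replicate number, Zim1 was called higher with butyrate against control (SE 0.0412, edgeR FDR 3.36e-06). That fit also called the difference (edgeR FDR 0.00296), but not the change in the presence of IL-1β (edgeR FDR 0.526). Usp29 belongs to the ubiquitin peptidase family. Usp29 stood at 41.5, 39.9, 38.9 and 38.6 CPM in the control libraries and at 41.5, 38.9, 43.4 and 37.7 CPM in the butyrate libraries. With IL-1β, Usp29 was at 46.8, 40.5, 41.8 and 43.9 CPM, and with IL-1β plus butyrate at 44.3, 44.7, 42 and 42.3 CPM. Its ranges overlapped, with 0.02 and 0.0033 in the butyrate comparisons (edgeR FDR 0.807 and 0.972), and 2582 of its exon bases are shared with Zim3, which was at 0.21 to 0.77 CPM.

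The maternally expressed RNAs of the Dlk1-Meg3 locus were not called with butyrate and fell with IL-1β. Meg3 stood at 1922, 1742, 2000 and 2045 CPM in the control libraries and at 2155, 2078, 2208 and 2383 CPM in the butyrate libraries. With IL-1β, Meg3 was at 1635, 1375, 1644 and 1796 CPM, and with IL-1β plus butyrate at 1742, 1596, 1789 and 1844 CPM. All butyrate libraries were above the control libraries, but the log2 fold change, 0.19 (SE 0.0675), did not pass the threshold (edgeR FDR 0.0313). It passed with the replicate number as a block (edgeR FDR 0.000153). In the presence of IL-1β, butyrate gave 0.11 (edgeR FDR 0.227). With IL-1β the change was -0.26 (SE 0.0675, edgeR FDR 0.00538), and IL-1β replicate 4 overlapped the control range. Rian gave the tightest replicates of the locus. Rian stood at 736, 731, 738 and 741 CPM in the control libraries and at 800.3, 772, 786 and 767 CPM in the butyrate libraries. With IL-1β, Rian was at 661, 629.6, 673 and 662 CPM, and with IL-1β plus butyrate at 653, 698, 716 and 714 CPM. All butyrate libraries were above the control libraries, but the butyrate comparisons, at 0.09 and 0.08, were not called (edgeR FDR 0.135 and 0.145). All libraries with IL-1β alone lay below all control libraries, and the log2 fold change was -0.17 (SE 0.0421, edgeR FDR 0.00372). Mirg is a host transcript of a cluster of miRNAs. Mirg stood at 46.7, 51.9, 48.97 and 47.98 CPM in the control libraries and at 53.2, 50.5, 49.1 and 52.6 CPM in the butyrate libraries. With IL-1β, Mirg was at 39.5, 43.8, 37.9 and 40.5 CPM, and with IL-1β plus butyrate at 38.9, 38.3, 42.1 and 40.9 CPM. The IL-1β libraries were below all control libraries, and the log2 value was -0.27 (SE 0.0517, with an edgeR FDR of 0.000169). In the butyrate comparisons Mirg gave 0.07 and -0.01 (edgeR FDR 0.332 and 0.871). The calls with IL-1β held in 13, 17 and 23 of 23 alternative fits for Meg3, Rian and Mirg.

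The paternally expressed genes of the same locus were low. Dlk1, a Notch-like membrane ligand, ranged from 4.73 to 14.3 CPM, and its log2 fold changes with butyrate were 0.13 and 0.23 with standard errors of 0.369 and 0.379. With the replicate number as a block these errors were 0.0938 and 0.0975, and neither change was called (edgeR FDR 0.284 and 0.0972). In all 4 conditions its highest library was replicate 1, at 13.02, 14.3, 9.93 and 10.8 CPM in control, butyrate, IL-1β and both, against 4.73 to 8.75 CPM in the other libraries. Zim1, Mest and Grb10 were also highest in replicate 1 of every condition. Rtl1, a retrotransposon-derived gene, ranged from 1.74 to 3.40 CPM and was called in no comparison.

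Slc22a18, an organic cation transporter of the Kcnq1ot1 locus, rose with IL-1β from 0.62 ± 0.18 to 1.81 ± 0.49 CPM (SD, n = 4), which is 1.54 on the log2 scale (SE 0.249, edgeR FDR 2.26e-05). These means rest on 8 to 19 counts per control library and 21 to 58 per IL-1β library. With butyrate it gave 0.50 and -0.27 (edgeR FDR 0.195 and 0.366), and the difference between these effects, -0.77, had an edgeR FDR of 0.634. Kcnq1ot1, the non-coding RNA of the control region, varied between libraries of a condition. Kcnq1ot1 stood at 33.5, 30.9, 37.7 and 42.6 CPM in the control libraries and at 24.8, 36.3, 30.8 and 37.8 CPM in the butyrate libraries. With IL-1β, Kcnq1ot1 was at 32.1, 25.2, 28.1 and 27.3 CPM, and with IL-1β plus butyrate at 25.9, 29.2, 22.6 and 29.4 CPM. Its ranges overlapped between control and butyrate, with -0.15 and -0.07 in the butyrate comparisons (edgeR FDR 0.455 and 0.742). Of the genes it is known to silence in cis, Cdkn1c, a cell cycle inhibitor outside the list of 31, rose with butyrate from 0.58 ± 0.28 to 1.29 ± 0.28 CPM and from 0.17 ± 0.05 to 0.83 ± 0.19 CPM in the presence of IL-1β (SD, n = 4), at 2 to 32 counts per library. Kcnq1, which overlaps Kcnq1ot1 on the other strand by 121 exon bases, rose from 0.45 ± 0.20 to 1.37 ± 0.41 CPM and from 0.58 ± 0.15 to 1.33 ± 0.43 CPM. The library kit did not mark the strand, so reads in shared bases cannot be assigned. Other imprinted genes of that region did not all rise. Mean CPM of Cd81 rose with butyrate from 59.1 to 119.7 and, in the presence of IL-1β, from 74.5 to 162.2. Tssc4 went from 107.6 to 98.8 and from 113.7 to 97.6, and Nap1l4 from 116.7 to 112 and from 109.6 to 108.8. Osbpl5 went from 30.8 to 33.2 and from 37.6 to 36.6.

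Mest and Copg2, neighbours on chromosome 6 whose exons overlap by 912 bases on opposite strands, were not called with butyrate. Mest, an alpha/beta hydrolase, ranged from 3.58 to 9.22 CPM and gave 0.22 and 0.44 with butyrate (edgeR FDR 0.418 and 0.0614). Copg2 encodes a coat protein of transport vesicles. Copg2 stood at 53.3, 50.7, 54.4 and 50 CPM in the control libraries and at 59.3, 55.8, 52.7 and 59.1 CPM in the butyrate libraries. With IL-1β, Copg2 was at 51.5, 51.2, 51 and 48.2 CPM, and with IL-1β plus butyrate at 54.7, 57.8, 56.9 and 54.8 CPM. With both agents all libraries were above those with IL-1β alone, and the changes were 0.12 and 0.15 (edgeR FDR 0.0498 and 0.0156). With the replicate number as a block, Mest and Copg2 were called in the presence of IL-1β (edgeR FDR 0.00124 and 0.00638).

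Zrsr1 and Gnas were not called with butyrate. Zrsr1 is a splicing factor retrogene inside Commd1, with which it shares 412 exon bases. Zrsr1 stood at 27.7, 28.6, 27.4 and 23.8 CPM in the control libraries and at 24.4, 23.1, 24.9 and 22.3 CPM in the butyrate libraries. With IL-1β, Zrsr1 was at 25.9, 24.1, 25.1 and 23.8 CPM, and with IL-1β plus butyrate at 23.1, 23.3, 21.9 and 21.5 CPM. The ranges with and without butyrate overlapped in the absence of IL-1β and did not in its presence, by a margin of under 1 CPM. Its log2 fold changes were -0.19 and -0.14 (edgeR FDR 0.0201 and 0.0937). The former was called with the replicate number as a block (edgeR FDR 0.00504). Gnas encodes the stimulatory G protein subunit that couples incretin receptors to cyclic AMP in beta cells. Gnas stood at 167, 149.6, 146 and 159 CPM in the control libraries and at 164, 155, 149 and 151 CPM in the butyrate libraries. With IL-1β, Gnas was at 181, 144, 151 and 159.5 CPM, and with IL-1β plus butyrate at 162, 144, 166 and 156 CPM. The ranges overlapped, with -0.0074 and -0.02 and 95% intervals of -0.14 to 0.12 and -0.15 to 0.12. The counts of Gnas sum transcripts of several starts with different imprints, which were not told apart.

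With IL-1β against control, 3 of 27 members rose and 5 fell (29.6%, where 17.8% of all genes were called, 11.2% higher and 6.59% lower). Peg10, Slc22a18 and Igf2r rose, and Meg3, Rian, Mirg, Grb10 and Impact fell. This split depended on scaling: with library sizes alone 6 rose and 1 fell. The count was 4 when IL-1β replicate 2 was left out and 5 without control replicate 1, 3 or 4. With both agents against control, 5 rose and 6 fell (40.7% against 30.6% of all genes, 15.8% higher and 14.8% lower), namely Igf2, Igf2r, Peg10, Mest and Slc22a18 upward and Mirg, Nnat, Plagl1, Impact, Zrsr1 and Zdbf2 downward. With library sizes alone 7 rose and 5 fell. That comparison shares the control libraries with the butyrate and IL-1β comparisons.

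**Figure D4:**
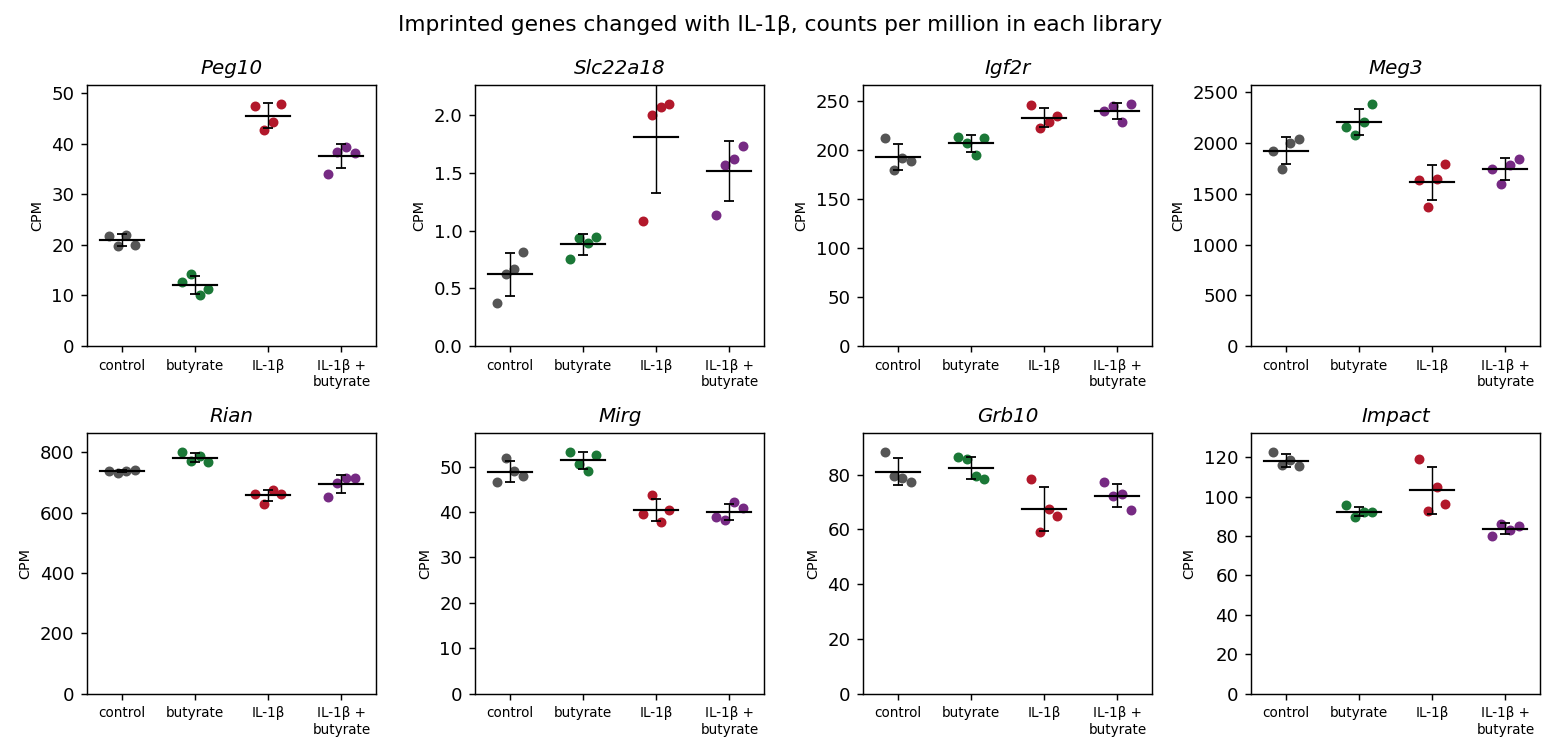
CPM in each library (points, replicates 1 to 4 from left to right) of the 8 members called with IL-1β against control, with the mean (wide line) and SD (error bar) of 4 libraries per condition; each axis starts at 0. Peg10 goes from 20.9 CPM in control to 45.5 CPM with IL-1β, while the falls of Meg3, Rian, Mirg, Grb10 and Impact are small beside their levels.

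Where the butyrate effects themselves were compared, in the absence and presence of IL-1β, 0 of 27 members were called by edgeR, where 0.0968% of all genes were. At an unadjusted p under 0.05 there were 4 members, Peg10, Plagl1, Zim1 and Slc22a18, and DESeq2 called 1 member, Peg10. The share of all genes at that unadjusted cut was not counted, and 0.0968% is not its counterpart.

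Sorted by the copy that is known to be expressed, the 5 members called with butyrate against control were among the 17 tested paternally expressed genes, whose median log2 fold change was -0.07 (19.9% of all genes were called), and edgeR called 0 of the 6 maternally expressed genes, whose median was 0.15. With IL-1β present, the counts were 7 of 17 and 0 of 6 (19.5% of all genes), with medians of -0.07 and 0.01. DESeq2 also called 0 of the 6 in each comparison, and 2 and 0 of them had an unadjusted p under 0.05, a cut at which all genes were not counted. Against control, other fits called up to 2 of the 6 upward, Zim1 and Rian with upper-quartile scaling, and Meg3 and Zim1 without the low-count filter or with the replicate number as a block. Of the 6 maternally expressed genes, Igf2r, Meg3, Rian, Mirg, Zim1 and Slc22a18, 5 were called with IL-1β, 2 of them upward (17.8% of all genes were called). The groups were not tested against each other, and genes of a locus are not independent.

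A list of 45 other imprinted genes held calls in both directions. Of 36 tested, 6 rose and 6 fell with butyrate against control, and 6 rose and 7 fell in the presence of IL-1β, where 19.9% and 19.5% of all genes were called, with medians of -0.06 and -0.0015. The largest called rises against control were those of Mkrn3 (2.23), Kcnq1 (1.58) and Th (1.56), and in the presence of IL-1β those of Cdkn1c (2.25), Mkrn3 (1.51) and Kcnq1 (1.19). Mkrn3 was at 0 to 4 counts per control library, so its fold is imprecise. Th, tyrosine hydroxylase, went from 21.1 ± 4.46 to 62.2 ± 12.0 CPM (SD, n = 4). The largest called falls were those of Tfpi2 (-1.77 and -2.05), a protease inhibitor gene of the Peg10 cluster, and Slc38a4 (-0.61 and -0.65), an amino acid transporter. They were followed by Casd1 (-0.58) against control and Ddc (-0.61), DOPA decarboxylase, in the presence of IL-1β.

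Of 24 genes that set, keep or remove DNA methylation and imprints, 23 were tested, 2 rose and 4 fell with butyrate against control, and 2 rose and 5 fell in the presence of IL-1β, against 19.9% and 19.5% of all genes called. Their medians were -0.09 and -0.06. Uhrf1, the partner that guides DNMT1 to replicated DNA, fell from 6.37 ± 1.58 to 1.78 ± 0.29 CPM and from 3.77 ± 0.60 to 1.697 ± 0.27 CPM (SD, n = 4). Hells, a chromatin remodeller of DNA methylation, fell by 1.48 and 0.75 on the log2 scale. Both genes are also transcribed in proliferating cells, and all 6 genes of the cycling cell list fell in the same comparisons. Kdm1b fell against control (-0.29), and Eed, a Polycomb subunit, fell in the presence of IL-1β (-0.25). Dnmt1, the maintenance methyltransferase, also fell against control (-0.24). In the presence of IL-1β its libraries overlapped, at 55.8 to 61.3 CPM without and 52.5 to 61.1 CPM with butyrate. Dnmt3b, a de novo methyltransferase, rose from 4.87 ± 0.84 to 6.78 ± 0.74 CPM and from 5.05 ± 0.88 to 7.66 ± 0.70 CPM, and Tet3, which oxidises methylcytosine, rose by 0.32 in both comparisons. Zfp57 was at 0.92 ± 0.17 CPM in control and Zfp445 at 134.8 ± 3.23 CPM, and neither was called with butyrate (log2 fold changes 0.04 and 0.0006 against control). DNA methylation itself was not measured.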

How the data were processed

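Single-end reads of 16 libraries (NEBNext Ultra II RNA kit, which does not mark the strand) were mapped by the authors to GRCm38 with STAR 2.5.3a, and the deposited values are raw read counts per Ensembl gene. The counting tool, annotation release, strand setting and read filters are not given in the sources used here. The submitters' processing notes also name bcl2fastq 2.19.1, FastQC 0.11.7, MultiQC 1.7 and DESeq2. The table held 52636 genes, of which 52489 were in GENCODE M21 (GRCm38), the source of symbols, positions and exon lengths. A library had 18635943 to 25955943 counts, and the chi-square per gene between libraries of a condition was 1.72 to 13.5, so replicates differed by more than counting error. Nothing in the labels says that they came from separate mice, since islets were pooled.

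Low counts were removed with filterByExpr by condition (18587 genes left). In R 4.3.3, edgeR 4.0.16 scaled the counts with TMM and fitted 1 robust quasi-likelihood model of the 4 conditions to all 16 libraries. Both butyrate comparisons, IL-1β against control, both agents against control, and the difference of the butyrate effects were tested, with Benjamini-Hochberg adjustment over all genes and a threshold of 0.01, that of the study. Alternatives were 3 other scalings, no low-count filter, DESeq2 1.42.0, the replicate number as a block, the compared conditions only, and leaving out each library. The members, lists and tests were chosen with earlier results of these data known. All members are reported. Those called with butyrate or at 10 CPM or more in a condition are given in each library, and of other lists the 3 largest called changes in each direction. Genes outside this rule (Dnmt1, Insr, Igf1r, Zfp57, Zfp445, Ins2, Pdgfra, Cd81, Tssc4, Nap1l4, Osbpl5, and Cdkn1c and Kcnq1 against further conditions) were chosen after their values were seen. Promoter sequences are from RefSeq (GRCm38.p6) and gave windows for 26 of 31 members. H19, Rtl1, Peg10, Sgce and Impact had no entry.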

Additional observations from a re-analysis of the deposited data

Results flagged for a closer look

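In 108 groups of 4 libraries (27 members in 4 conditions), 5 held a library whose gap to the nearest of the others, divided by the range of the group, was above 0.829, Dixon's critical value at which chance gives about 5% of groups. Slc22a18 was low in IL-1β replicate 1, at 1.09 CPM against 2.00 CPM for the next library (ratio 0.904), and it remained called with IL-1β in each fit that left out 1 library. Rtl1 was high in butyrate replicate 4, at 3.40 against 2.75 CPM (0.875). Sgce was low in replicate 4 of IL-1β plus butyrate, at 9.05 against 9.30 CPM (0.867). Copg2 was low in IL-1β replicate 4, at 48.2 against 51.0 CPM (0.851). Ube3a was low in control replicate 2, at 73.5 against 76.7 CPM (0.834).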

How the results depend on the processing

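Of 3078 values of single members recomputed under the alternatives, 2963 kept their direction and their side of the threshold or were below it on both sides, 61 lost a call, 54 gained one and 0 called values changed sign, while 137 changed sign without a call. The number of members called with butyrate against control (5) was 9 without the low-count filter and 10 with the replicate block. With IL-1β against control (8) it was 4 when only these conditions were fitted. For the difference of the butyrate effects (0) it was 1 without the filter, 1 with DESeq2 and 2 with the replicate block. Leaving out 1 library at a time gave 4 to 7 members with butyrate against control, 6 to 8 in the presence of IL-1β, 4 to 7 with IL-1β against control, 9 to 12 with both agents against control and 0 to 1 for the difference (1, Peg10, without butyrate replicate 2). The count with IL-1β fell to 4 without IL-1β replicate 2 and to 5 without control replicate 1, 3 or 4. Other scalings moved the median of all genes by at most 0.075 on the log2 scale.

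The replicate number as a block raised the count to 10 in the presence of IL-1β and to 12 with IL-1β against control. For the alternative fits, here and above, the share of all genes called was not counted. Their counts of members therefore say nothing particular to imprinted genes. Deviations of libraries with the same number from their condition means correlated at 0.0535 to 0.397 over 18587 genes in 24 pairs, of which 17 were above 0.1, and at 0.0108 to 0.54 over the 10000 highest genes. Of 16 libraries, 13 matched a library of their own number best. The study speaks of 4 independent experiments and used paired t-tests for qPCR of islets. In the column names of the counts, the sample numbers run through the 4 conditions of each replicate number in turn. Neither the study nor the labels says what the replicate number stands for, so the unblocked fit is reported. Not every correlation was above 0.1, which does not show that pairing was absent. If the numbers do mark shared experiments, the unblocked fit leaves their shared part in the error and can miss small changes. Calls gained with the block were Meg3 and Zim1 (up) and Ndn, Zrsr1 and Zdbf2 (down) with butyrate against control, Mest and Copg2 (up) and Ndn (down) in the presence of IL-1β, Zim1, Ndn and Snrpn (up) and Airn (down) with IL-1β, and Peg10 and Zim1 for the difference of the butyrate effects (Zim1 -0.29, edgeR FDR 0.00296). The promoter windows gave the short sequence in 17.5% of the members' windows instead of 30.0% without the 50 bases after the start. At this depth nothing can be read from H19, Phlda2 and Magel2. The counts of Snurf do not measure it, since its exon bases all lie within exons of other genes.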
